A study of Mus musculus with 6 samples.

Results

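Interleukins are secreted proteins through which lymphocytes and other cells signal to each other, and interleukin receptors are the membrane chains that bind them. The set described here is the interleukin and interleukin receptor genes in CD4+ T cells (helper T cells) of the mouse. It was chosen by name: each row of the count table whose mouse symbol begins with Il and a digit was taken, except the receptor chains Il12rb1, Il12rb2, Il18r1 and Il18rap. This gave 64 of the 13177 rows of the table, each for a different gene. By function they comprised 31 ligands, 26 receptor chains, 5 decoy receptors or inhibitors, and 2 genes, Il4i1 and Il4i1b, which encode a secreted amino acid oxidase rather than a cytokine or receptor.

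RNA was sequenced from 6 libraries in 2 groups of 3. The 8 h libraries came from cells taken 8 h after they had been given a synthetic miR-155 oligonucleotide, miR-155 being a microRNA of activated lymphocytes, and the control libraries are labelled as 0 h. Cells had been isolated on magnetic beads. The treatment label of the controls names the same oligonucleotide. No 8 h library without it is among those analysed here, so time and exposure cannot be told apart. The descriptions of the 8 h libraries say CD5+ where those of the controls say CD4+, whereas all 6 source labels say CD4+. Neither strain, age nor number of animals is given, and whether replicates were separate cultures or animals is not stated, so p-values measure only the spread between these libraries, which may be technical.

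Libraries held 4564010 to 13675127 counts. Cd4 had only 5 to 10 counts in any library, while Cd5 had 3020 to 27651. Cd3d, Cd3e and Cd3g, subunits of the T cell receptor complex, had between 256 and 73937 counts in every library. With Cd4 this low, whether the values are ordinary read counts per gene is uncertain, and all counts below carry that limit. The libraries differed widely within groups: of the 8308 rows with enough counts to be tested, 54.5% in the 8 h group and 54.4% in the control group had a 0 or a more than 10-fold range over the 3 libraries. The same held for 18 of the 41 tested interleukin and receptor genes in the 8 h group and for 21 of 41 in the control group.

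Most interleukin receptors pair a ligand-binding chain with a shared signalling chain. Receptors for IL-2, IL-4, IL-7, IL-9, IL-15 and IL-21 share the common gamma chain, encoded by Il2rg, and act through JAK kinases and STAT factors. Receptors of the IL-1 family act through the adaptor MyD88, and this family is also restrained by decoy receptors and receptor antagonists. In helper T cells IL-2 is the growth factor of early activation, IL-4, IL-5 and IL-13 mark the Th2 lineage, and IL-21 is made by follicular helper cells.

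The microRNA acts by pairing of its seed with sites in the 3' UTR of messenger RNAs. The mature sequence and the matches in this gene set are shown because the oligonucleotide is named after miR-155. The sequence is that of the reference, and the oligonucleotide's own sequence was not compared with it. The RefSeq sequence (GRCm38.p6, chr16:84714143-84714165, plus strand) is given below with the seed, bases 2 to 8, in capitals. In the sites, given 5′ to 3′ on the strand of the transcript, capitals mark the seed match.
miR-155-5p: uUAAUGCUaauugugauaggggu
Il15ra, chr2:11733958-11733984, plus strand: cagtacaaaaAGCATTAaaattatcaa
Il15ra, chr2:11734166-11734192, plus strand: gagcccagctAGCATTAgacacatacc
Il7r, chr15:9506554-9506580, minus strand: tgggtgccttAGCATTAaaattctgtt
Il21, chr3:37222921-37222947, minus strand: ataaattcatAGCATTAttgatctatg
Il6ra, chr3:89869530-89869556, minus strand: cactgacctaAGCATTAgttattttat
Il6ra, chr3:89867075-89867101, minus strand: tgcattgttcAGCATTAccagatagag
Il17ra, chr6:120483774-120483800, plus strand: cgtcttgcctAGCATTAgcaagccctg
Il1rl2, chr1:40366021-40366047, plus strand: tcaggaaaccAGCATTAgggtgcagat

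At least 1 match was found in the longest annotated 3' UTR (GENCODE M21, GRCm38) of 6 of the 63 genes of the set that had one, or 9.52%, against 8.25% of the 12579 rows of the table that had one. The motif searched was AGCATTA on the strand of the transcript. In Il7r and in the first site of Il15ra the match is followed by an A, the longest class of site. Of the 8 sites, 3 lie past the end of the gene in RefSeq (the second of Il15ra, the second of Il6ra and that of Il17ra). A match is a description of the sequence, and whether the counted transcript carries it was not tested. For Il21 the match lies at base 2400 of a 3' UTR of 2578 bases. The transcript matched to its counted row is another one, of only 529 bases.

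The comparison of 8 h with control libraries asked which of these genes differed 8 h after the oligonucleotide was given. Differences are log2 fold changes of 8 h over control with their standard error. They and the adjusted p-values come from edgeR's quasi-likelihood test on the whole table, with Benjamini-Hochberg adjustment. Of the 64 genes, 41 had enough counts to be tested. None passed an adjusted p of 0.05, as was the case for 0.0% of the 8308 rows tested, and adjusted p-values of the 41 genes lay between 0.342 and 1.0. At an unadjusted p under 0.05 there were 8 of the 41 genes (positive log2 fold change for 4, negative for 4), or 19.5% against 8.53% of all rows tested. Of the 4 positive ones, Il6, Il17b and Il1f5 had 99.5%, 97.0% and 90.5% of their summed 8 h CPM in 1 library. With replicate number added to the edgeR model, the share was 4.88% against 3.21%. By DESeq2, run as an alternative, 6 of the 41 passed its adjusted threshold, against 4.67% of all rows tested, and 5 of the 41 received no adjusted p. Unadjusted p-values under 0.05 numbered 9 of the 41 by DESeq2 (22.0%, against 16.5% of all rows tested) and 5 by limma-voom (12.2%, against 4.85%).

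In CPM, counts per 1000000 counts of a library, the groups did not overlap for 6 of the 41 genes, or 14.6%, against 10.9% of all rows tested. Values at 8 h were higher for 3 of them (Il2, Il1rl1, Il1f5; 6.23% of all rows) and lower for 3 (Il1r2, Il1r1, Il4i1b; 4.65% of all rows). With TMM-scaled totals, tried after the values were seen, 5 of the 41 did not overlap, or 12.2% against 10.8% of all rows tested. The log2 fold change was positive for 20 genes and negative for 21, with a median of -0.07 against 0.06 over all rows tested. With library totals in place of TMM scaling, the split became 22 positive and 19 negative and the median turned to 0.08.

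**Figure D1:**
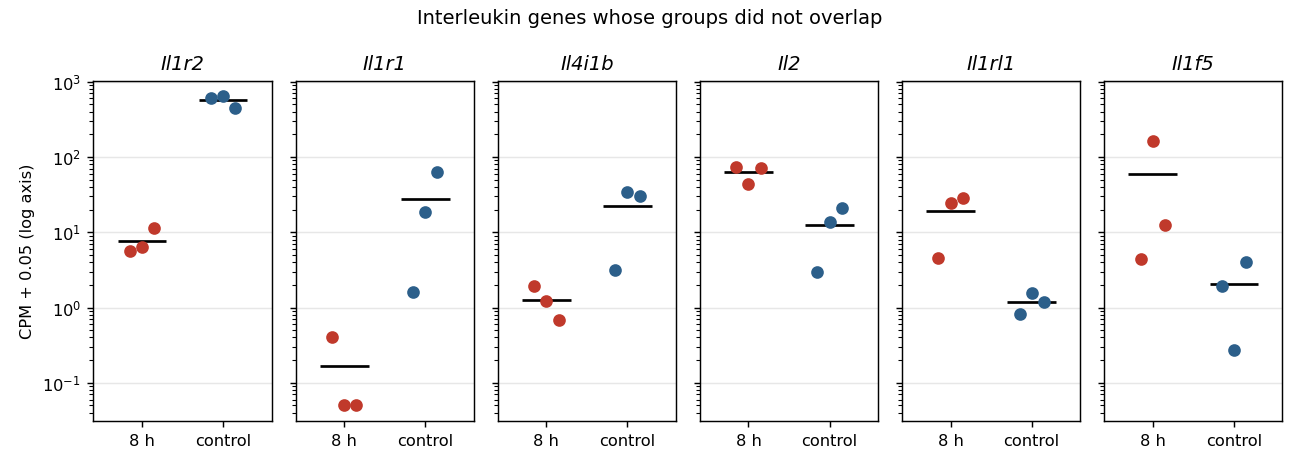
CPM plus 0.05 on a log axis in each of the 3 libraries at 8 h (red) and the 3 control libraries (blue) for the 6 tested genes whose groups did not overlap; bars mark group means. Il1r2 lies between 5.51 and 11.4 CPM at 8 h and between 449 and 637 CPM in controls, with the replicates of each group close together.

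The IL-1 receptor genes held the widest separation. Il1r2, on chromosome 1 (40084692 to 40125230, GRCm38), encodes the decoy receptor that binds IL-1 without signalling. It had 47, 86 and 71 counts in 8 h replicates 1 to 3, against 3939, 2906 and 5519 counts in control replicates 1 to 3. In CPM these were 5.51, 6.29 and 11.4 at 8 h, against 610, 637 and 449 in controls. All 3 libraries at 8 h were low and all 3 controls high, and the highest 8 h library lay 39.4-fold below the lowest control. That gap was the largest among the 8308 rows tested, in CPM and also with TMM scaling, where it was 48.9-fold. The gap was measured after the values had been seen, and its rank is a description. Il1r2 averaged 7.72 ± 3.18 CPM at 8 h and 565 ± 102 CPM in controls (SD, n = 3 each). The log2 fold change stood at -6.32 ± 2.51 (SE; edgeR adjusted p = 0.472). DESeq2 gave an adjusted p of 4.80e-05, and without each replicate in turn edgeR gave values between -6.60 and -6.13, with adjusted p-values from 0.413 to 0.641. In a bulk library, fewer cells of one type and less RNA per cell cannot be told apart.

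Il1r1, the signalling receptor for IL-1, had 3, 0 and 0 counts at 8 h, against 10, 84 and 772 counts in controls. The controls thus spread widely, from 1.55 to 62.7 CPM, while 8 h replicate 1 alone had any count at that time, at 0.351 CPM. Over the pooled counts of each group, 3 at 8 h and 866 in controls, the ratio of 8 h to control was 0.00284 (95% exact Clopper-Pearson interval 0.000584 to 0.00833), an interval that covers counting error only. The fitted log2 fold change of -7.84 ± 2.32 (SE) depends on how low counts are handled and is no bound, and it moved to -10.96 without 8 h replicate 1 and -6.13 without control replicate 3. Its edgeR adjusted p was 0.342. DESeq2 gave an adjusted p of 0.000577.

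Il1rl1 encodes ST2, the receptor for IL-33, which Th2 cells and tissue regulatory T cells carry. It had 38, 339 and 177 counts at 8 h, against 5, 7 and 14 counts in controls. All 3 values at 8 h, 4.45, 24.8 and 28.3 CPM, lay above the controls at 0.775, 1.53 and 1.14 CPM. For Il1rl1 the log2 fold change stood at 3.95 ± 1.87 (SE; adjusted p = 0.544 by edgeR and 0.0179 by DESeq2). The ligand, Il33, was not tested. It had 894, 7 and 1 counts at 8 h, against 0, 14 and 0 in controls, so that a single library held nearly all of them.

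Il1r2, Il1r1, Il1rl2 and Il1rl1 lie next to each other on chromosome 1, with starts 0, 138, 240 and 320 kb from that of Il1r2. Il1rl2, the receptor for the IL-36 cytokines, had a log2 fold change of -0.24 ± 1.34 (SE; edgeR adjusted p = 0.975), with 4, 80 and 9 counts at 8 h and 22, 26 and 3 in controls, and its groups overlapped. The 4 neighbours thus comprised 2 genes with lower, 1 with overlapping and 1 with higher values at 8 h. The row continues with the receptor chains Il18r1 and Il18rap, whose log2 fold changes were -0.34 ± 1.52 and -3.65 ± 1.74 (SE; edgeR adjusted p = 0.970 and 0.544).

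**Figure D2:**
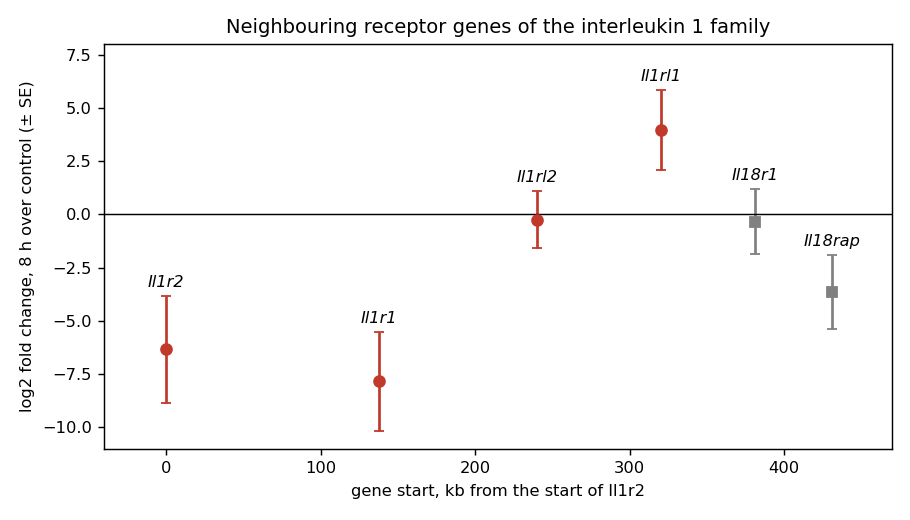
Log2 fold change of 8 h over control with its SE (edgeR, n = 3 each) against the distance of each gene's start from that of Il1r2, in kb; grey squares are 2 neighbours outside the gene set. Il1r2 and Il1r1 lie at -6.32 and -7.84, Il1rl2 near 0 and Il1rl1 at 3.95.

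The other inhibitors of the IL-1 family had other patterns. Il1f5, which encodes the antagonist of the IL-36 receptor, had 37, 2204 and 78 counts at 8 h, against 12, 1 and 49 in controls. The 8 h value was carried by replicate 2, at 161 CPM, with replicates 1 and 3 at 4.33 and 12.5 CPM, and the controls lay between 0.219 and 3.98 CPM. The groups only just separated in CPM, by 1.09-fold, and overlapped with TMM scaling. The log2 fold change was 4.71 ± 1.99 (SE; edgeR adjusted p = 0.510), and 1.74 without 8 h replicate 2. Il18bp, the binding protein that neutralises IL-18, had 28, 79 and 79 counts at 8 h and 21, 53 and 70 in controls, and averaged 7.24 and 6.85 CPM. Il1rn, the IL-1 receptor antagonist, reached at most 8 counts in any library.

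Of the 8 IL-1 family ligands, only Il18 and Il1a could be tested. Il18 had 80, 19 and 55 counts at 8 h and 5, 92 and 11 in controls, and Il1a had 23, 205 and 3 against 1, 0 and 71. Their log2 fold changes were -0.10 ± 1.59 and 1.45 ± 1.52 (SE; edgeR adjusted p = 0.995 and 0.813). The accessory chain Il1rap, which pairs with the IL-1 and IL-33 receptors, averaged 5.90 CPM at 8 h and 4.50 CPM in controls, with overlapping groups. Across the 10 tested genes of the IL-1 family 5 log2 fold changes were positive and 5 negative. For 4 of the 10 (40%) the groups did not overlap in CPM, against 10.9% of all rows tested. Il1f5, 1 of these 4, overlapped with TMM scaling. The genes were chosen with results of these data known, so this share is a description and was not tested.

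Myeloid cells also carry IL-1 receptors. The 5 myeloid markers Lyz2, Csf1r, Itgam, Cd14 and Adgre1 summed to 9.96, 6.95 and 5.77 CPM at 8 h, against 52.7, 42.9 and 16.7 CPM in controls. Without Adgre1 the sums were 9.96, 0.512 and 5.77 CPM at 8 h and 1.39, 42.7 and 15.0 CPM in controls, and overlapped. Itgam had 36, 1 and 7 counts at 8 h, against 1, 3 and 1 in controls. Only Adgre1 and Cd14 had enough counts for a test, with edgeR adjusted p-values of 0.621 and 0.690, and Csf1r had at most 3 counts in any library. Adgre1 was at 0 in 8 h replicates 1 and 3, and Csf1r was at 0 in control replicate 1. The natural killer cell markers Gzma, Prf1, Klrb1c, Eomes and Ncr1 summed to 92.7, 32.9 and 16.2 CPM at 8 h, against 121, 261 and 928 CPM in controls. Without Gzma they were 46.0, 10.5 and 5.77 CPM at 8 h and 54.1, 21.9 and 107 CPM in controls, and overlapped, and the log2 fold changes of Eomes and Ncr1 were positive (0.57 and 0.64; edgeR adjusted p = 0.949 and 0.935). Sums of the T cell, CD8 T cell, B cell, erythroid and platelet, mast cell and basophil, and epithelial markers overlapped between groups. Among the listed marker sets, only the myeloid and natural killer sums did not overlap. Single markers of the other sets separated in both directions. Ms4a1 (B cells) was higher at 8 h, and Alas2 (erythroid cells) and Mcpt8 (basophils) were lower (edgeR adjusted p = 0.609, 0.316 and 0.603). The part of any of these cells in the differences of Il1r2 and Il1r1 was not tested.

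Genes of the common gamma chain family included the T cell growth factor. Il2, on chromosome 3 (37120713 to 37125954), had 626, 596 and 450 counts at 8 h, against 19, 63 and 258 in controls. The 8 h values of 73.3, 43.6 and 72.1 CPM all lay above the controls at 2.94, 13.8 and 21.0 CPM. For Il2 the log2 fold change stood at 2.22 ± 1.79 (SE; adjusted p = 0.745 by edgeR and 0.252 by DESeq2). The highest and lowest 8 h libraries of Il2 differed by 1.68-fold in CPM, and those of the controls by 7.12-fold.

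Il21 starts 102 kb from the start of Il2, and its longest annotated 3' UTR holds a seed match. It had 11, 17 and 70 counts at 8 h, against 30, 1230 and 300 in controls. In CPM these were 1.29, 1.24 and 11.2 at 8 h and 4.65, 270 and 24.4 in controls, and the groups overlapped because 8 h replicate 3 lay above control replicate 1. The log2 fold change stood at -4.45 ± 1.99 (SE; adjusted p = 0.538 by edgeR and 0.0397 by DESeq2), and at -1.98 without control replicate 2. Its receptor chain, Il21r, had 1117, 720 and 209 counts at 8 h and 382, 119 and 410 in controls, with a log2 fold change of 0.74 ± 1.75 (SE; edgeR adjusted p = 0.935) and overlapping groups.

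The Th2 cytokine genes Il4, Il13 and Il5, neighbours on chromosome 11, had overlapping groups with wide spread inside each. Il4 had 32, 1782 and 2196 counts at 8 h and 33, 323 and 3568 in controls, or 3.75, 130 and 352 CPM against 5.11, 70.8 and 290 CPM. Replicate 1 was the low library and replicate 3 the high one in both groups. Its log2 fold change was 0.21 ± 1.87 (SE; edgeR adjusted p = 0.986). Il13 had 213, 25 and 38 counts at 8 h against 57, 516 and 24 in controls, and Il5 had 28, 29 and 36 against 8, 14 and 59. The libraries high in Il4 were not those high in Il13: Il13 was highest in 8 h replicate 1 and control replicate 2.

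The 3 chains of the IL-2 receptor stood at low counts. Il2ra, the high-affinity chain induced by activation, had 91, 27 and 11 counts at 8 h and 13, 25 and 16 in controls. Il2rb, the signalling chain shared with IL-15, had 11, 13 and 31 counts against 21, 28 and 77, and Il2rg, the common gamma chain, had 19, 183 and 73 against 67, 7 and 162. Their log2 fold changes were 0.71 ± 1.48, -1.28 ± 1.49 and -0.08 ± 1.64 (SE; edgeR adjusted p = 0.926, 0.838 and 0.997), and all 3 pairs of groups overlapped. The sign of Il2rg turned with library totals alone (0.12).

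Receptors that resting CD4+ T cells are known to carry had few counts. Il7r, the receptor for the survival factor IL-7, had 7, 3 and 2 counts at 8 h and 6, 16 and 8 in controls. Il4ra, the receptor for IL-4, had 2, 5 and 2 against 2, 1 and 1 counts, and Il6st, the shared signalling chain of the IL-6 family, had 4, 10 and 1 against 3, 1 and 4. Il6ra had 6, 20 and 2 counts at 8 h and 4, 6 and 59 in controls. None of the 4 had enough counts for a test, and no fold change is given for them.

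**Figure D3:**
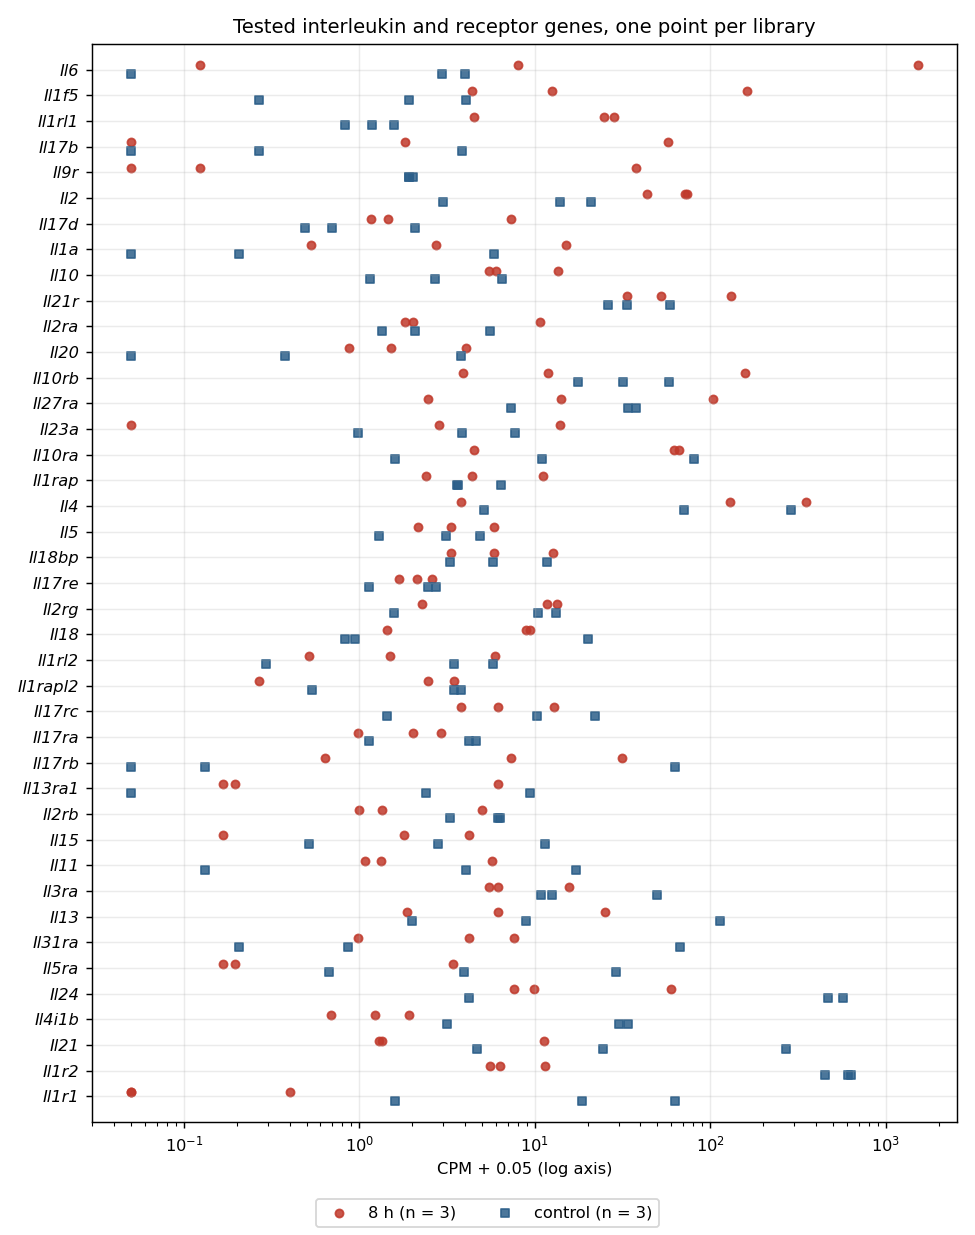
CPM plus 0.05 on a log axis in each library for the 41 tested genes, ordered by log2 fold change; red circles are the 3 libraries at 8 h and blue squares the 3 control libraries. For most genes the groups overlap, and Il6 has 1 library at 1530 CPM beside 2 at or under 8.01 CPM.

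Among the cytokines of the IL-6 and IL-12 group, Il6 gave the largest positive log2 fold change of the set, 7.80 ± 2.65 (SE; edgeR adjusted p = 0.346), and it rested on 1 library. Il6 had 13060, 1 and 50 counts at 8 h and 0, 18 and 36 in controls. In 8 h replicate 1 it took 68.9% of all counts of the gene set, and without that library its log2 fold change was 0.65. DESeq2 gave Il6 no adjusted p. Il31ra, a receptor chain of the same group, had 8, 104 and 26 counts at 8 h and 1, 307 and 10 in controls. Il27ra, the IL-27 receptor, had 120, 1419 and 15 against 244, 155 and 89, with overlapping groups.

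In the IL-10 family, Il24 was high in control replicates 1 and 3 and low in control replicate 2. It had 84, 104 and 374 counts at 8 h, against 3690, 19 and 5805 in controls, or 9.84, 7.61 and 59.9 CPM against 572, 4.16 and 472 CPM. Control replicate 2 lay below every 8 h library, so the groups overlapped. The log2 fold change stood at -4.05 ± 2.19 (SE; adjusted p = 0.613 by edgeR and 0.0897 by DESeq2). Il10, an inhibitory cytokine encoded 138 kb from Il24, had 115, 81 and 34 counts at 8 h and 17, 5 and 79 in controls (log2 fold change 1.11 ± 1.59 SE; edgeR adjusted p = 0.876). Its receptor chains overlapped between groups, Il10ra with 38, 847 and 416 counts at 8 h and 524, 50 and 19 in controls, and Il10rb with 1341, 161 and 24 against 114, 145 and 711. Il10rb had a log2 fold change of 0.60 ± 1.73 (SE; edgeR adjusted p = 0.949), which was -2.27 without 8 h replicate 1.

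In the IL-17 family, the 4 tested receptor chains Il17ra, Il17rb, Il17rc and Il17re had log2 fold changes between -1.0 and -0.07, with edgeR adjusted p-values from 0.886 to 0.996, and 1 of the 4 turned positive with library totals alone. Il17b had 0, 783 and 11 counts at 8 h and 0, 1 and 47 in controls. Il25, a type 2 cytokine also known as IL-17E, had 88, 12 and 22 counts at 8 h against 1, 2 and 2 in controls. All 3 libraries at 8 h lay above all 3 controls, at 10.3, 0.878 and 3.52 CPM against 0.155, 0.438 and 0.163 CPM, but it had too few counts for a test.

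Il4i1b had 16, 16 and 4 counts at 8 h, against 20, 155 and 370 in controls. The 8 h values of 1.87, 1.17 and 0.641 CPM lay below the controls at 3.10, 34.0 and 30.1 CPM. For Il4i1b the log2 fold change stood at -4.20 ± 1.92 (SE; adjusted p = 0.538 by edgeR and 0.0151 by DESeq2). Il4i1b overlaps Il4i1 on chromosome 7 (44816370 to 44840804 and 44836288 to 44840809), so how reads were split between them is uncertain. Il4i1 had 1, 32 and 0 counts at 8 h and 8, 1 and 1 in controls.

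**Figure D4:**
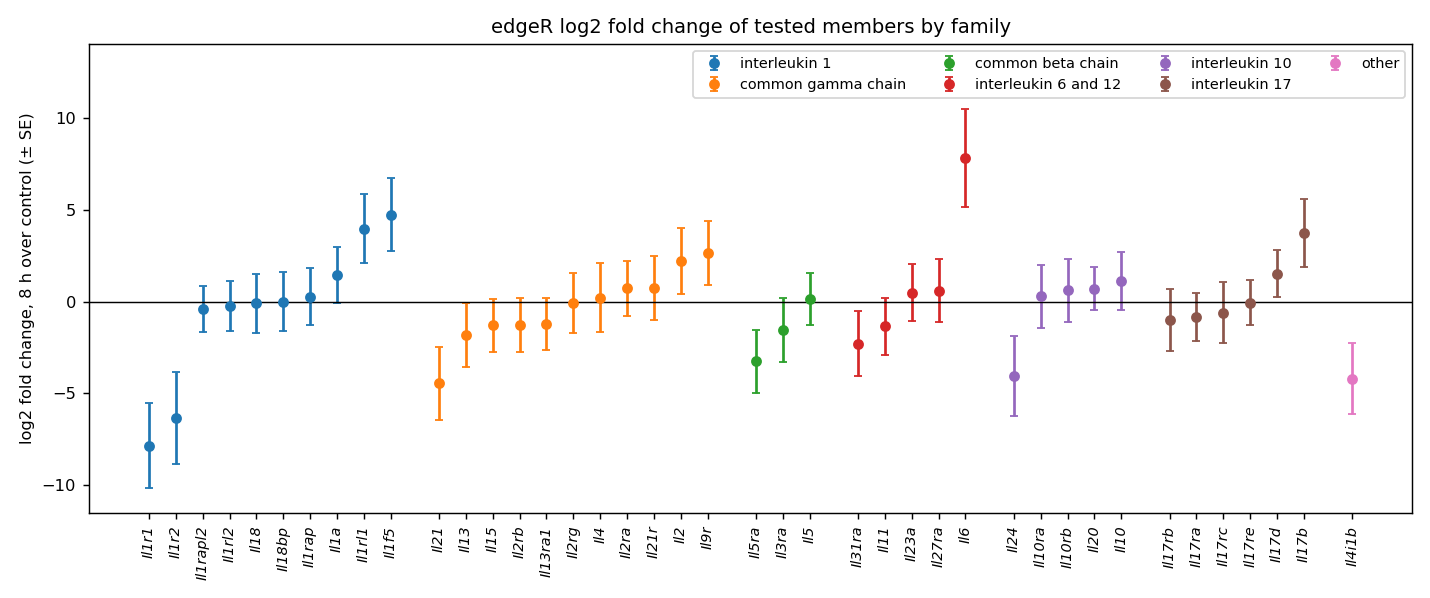
Log2 fold change of 8 h over control with its SE (edgeR, n = 3 each) for the 41 tested genes, coloured by family and ordered within it. Il13 and Il13ra1 are drawn with the common gamma chain genes, although IL-13 is not among the cytokines listed above for that chain. Values run from -7.84 for Il1r1 to 7.80 for Il6, and SE from 1.16 to 2.65.

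The genes with a seed match were set beside these values. Of the 6, Il21, Il17ra and Il1rl2 were tested, with log2 fold changes of -4.45 ± 1.99, -0.86 ± 1.30 and -0.24 ± 1.34 (SE; edgeR adjusted p = 0.538, 0.886 and 0.975). Negative values were also found for 4045 of the 8308 rows tested, and the direction over all rows with a match was not examined. Il7r and Il6ra, with the counts given above, could not be tested. The match of Il21 lies in a longer transcript than the one of 529 bases matched to its counted row. Il15ra, which presents IL-15 to other cells and holds 2 matches, was too low for a test, with 2, 17 and 1 counts at 8 h and 9, 11 and 16 in controls. Its values of 0.234, 1.24 and 0.160 CPM at 8 h lay below the controls at 1.39, 2.41 and 1.30 CPM. Among the 23 untested genes of the set, Il15ra and Il25 were the 2 whose groups did not overlap, or 8.7% against 10.9% of all rows not tested. Il1r2 and Il1r1 hold no match in their annotated 3' UTRs of 24 and 3864 bases.

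Per kilobase of transcript, which allows different genes to be compared, the order of levels differed between the groups. At 8 h Il6, Il4 and Il2 had the highest means, at 449, 274 and 55.1 CPM per kb, and the mean of Il6 rested on replicate 1 at 1341 CPM per kb. In controls the highest means were those of Il1r2, Il24, Il4 and Il21, at 398, 301, 207 and 188 CPM per kb. The mean of Il21 rested on control replicate 2, at 509 CPM per kb beside 8.79 and 46.1. It also rested on a matched transcript of 529 bases, and a longer transcript would lower it. Il24 was at 3.59 CPM per kb in control replicate 2. Il6 averaged 2.01 CPM per kb in controls, with every library far below those of Il1r2. For Il4 the libraries ran from 6.35 to 596 CPM per kb at 8 h and from 8.66 to 492 CPM per kb in controls, so its libraries spread widely in both groups. Il1r2 ran from 3.88 to 8.01 CPM per kb at 8 h and from 316 to 449 CPM per kb in controls.

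Summed over the 64 genes, the level was 2221, 817 and 878 CPM at 8 h, against 1578, 1577 and 1632 CPM in controls. Decoy receptors and inhibitors summed to 13.4, 175 and 37.5 CPM at 8 h and 617, 649 and 459 CPM in controls, without overlap, and without Il1r2 to 7.85, 169 and 26.1 against 6.51, 12.1 and 10.3 CPM. Receptor chains summed to 398, 315 and 238 CPM at 8 h and 319, 297 and 272 CPM in controls. Ligands summed to 1807, 324 and 602 CPM at 8 h and 638, 597 and 871 CPM in controls, and without Il6 to 278, 324 and 594 CPM at 8 h and 638, 593 and 868 CPM in controls. Ligand means were thus 911 CPM at 8 h and 702 CPM in controls, and without Il6 398 and 700 CPM. The sums without Il6 overlapped, with 594 CPM in 8 h replicate 3 and 593 CPM in control replicate 2. Il24, also a ligand, was left in. It made up 572, 4.16 and 472 CPM of the controls, against 9.84, 7.61 and 59.9 CPM at 8 h. No test is given for these sums, because the genes were chosen with results of these data known.

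**Figure D5:**
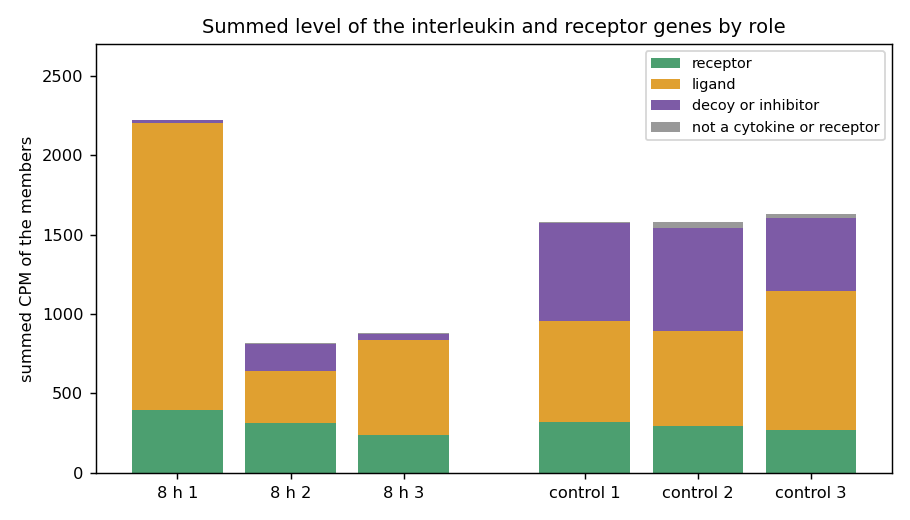
Summed CPM of the 64 genes in each library at 8 h (left) and of the control group (right), stacked by role. The decoy and inhibitor part is 617, 649 and 459 CPM in controls 1 to 3, and the ligand part of 8 h replicate 1 is 1807 CPM.

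Genes that carry interleukin signals inside the cell were also counted. Of 39 listed JAK, STAT, SOCS, MyD88 pathway and related receptor and cytokine genes, 36 were in the table and 24 were tested. None of the 24 passed edgeR's threshold, with the lowest adjusted p at 0.579 and 1 at an unadjusted p under 0.05 (4.17%, against 8.53% of all rows tested), and DESeq2 called 0, with 2 at an unadjusted p under 0.05. Log2 fold changes were positive for 5 and negative for 19, with a median of -0.79 against 0.06 over all rows tested, and with library totals alone for 7 and 17, with a median of -0.61. The groups did not overlap for 2 of the 24, Csf2 and Tab1, or 8.33% against 10.9% of all rows tested. Csf2, the cytokine GM-CSF, had 126, 20 and 20 counts at 8 h and 9, 6 and 17 in controls, and Tab1, an adaptor of the kinase TAK1 downstream of MyD88, had 46, 13 and 26 against 100, 39 and 276. Both were named after their values had been seen.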

How the data were processed

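Depth was 4564010 to 13675127 counts a library. Whole numbers per RefSeq accession in 6 libraries were deposited by the authors as 1 table and were used unchanged, as counts. That they are ordinary read counts per gene is not stated, and is uncertain since Cd4, Il7r, Il6st and Il4ra are near 0 and spread within groups is wide. Single reads of 50 bases came from TruSeq libraries, per the series' design text. The submitters' processing notes list Bowtie, R 3.4.2 and GRCm38 without saying what each did. Not given in the sources used here: the counting program, annotation, filter and use of strand. So counts of overlapping or near-identical genes are uncertain. Symbols came from the RefSeq table of GRCm38.p6 (12827 accessions) or GENCODE M21 (47), and 303 stayed unnamed. Transcript lengths came from GENCODE M21.

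The comparison used edgeR 4.0.16 under R 4.3.3 (TMM, filterByExpr, robust quasi-likelihood F test in its default form, two-sided, Benjamini-Hochberg over 8308 rows). SE was derived from the size of the log2 fold change divided by the root of F. Alternatives used limma 3.58.1 and DESeq2 1.42.0. Of the fits, only that of edgeR was tested on simulated counts. Its power at a spread as wide as in these libraries is not reported here.

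Members and lists were chosen with earlier results of these data known. Fold changes are given for tested members (a) without overlap of groups, (b) among the 8 of highest mean CPM or (c) listed (Il2, Il4, Il10, Il21, Il2ra, Il2rb, Il2rg, Il4ra, Il6ra, Il6st, Il7r, Il21r). Those of Il1rl2, Il18, Il1a, the IL-17 receptors and genes outside the set were added after seeing values.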

Additional observations from a re-analysis of the deposited data

How the results depend on the processing

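The count of interleukin and receptor genes past the threshold was 0 in edgeR under the replicate block, RLE, upper-quartile and library-total scaling, both other filters and the newer quasi-likelihood form, in limma-voom, and without each replicate (0 to 0). By DESeq2 it was 6 of 41, with 388 of all rows. Whether replicate numbers pair the libraries is not stated. Within pairs 1 to 3 the deviations from group means correlated at -0.0107, 0.0151 and -0.0039, and not every library correlated best with its own number. With spread within groups this wide, such small correlations cannot exclude pairing. The replicate block added no call to a main fit without calls. With the replicate block 2 of the 41 genes (4.88%, against 3.21% of all rows tested) had an unadjusted p under 0.05. The signalling list then split into 10 positive and 14 negative values (median -0.51). With the block Il10rb turned to -1.02, and with limma-voom to -0.81. Il6 moved to 1.24 with the block and 3.47 with limma-voom, Il1f5 to 2.75 with the block and Il24 to -2.57 with limma-voom. Il2rg turned to 0.12 with library totals and to 0.0774 with limma-voom. Without each replicate, the log2 fold change ran from -2.27 to 1.25 for Il10rb, -0.0101 to 1.22 for Il21r, -0.65 to 1.33 for Il2ra, -0.58 to 0.43 for Il2rg and -0.91 to 2.15 for Il4, and the other 11 of the 16 genes tracked kept their sign. The cause was not tested. Library totals alone moved the median log2 fold change of all rows tested to 0.16, against 0.06. The median of the tested set ran from -0.43 to 0.31 and the difference in summed CPM (8 h minus control) from -748 to -46.4 without each replicate, and that difference was -290 with all genes and 267 without Il1r2. The 11 genes that kept their sign without each replicate also kept it under every other alternative run. Il6 was among them, although its value rested on 1 library. Il2, Il1r2, Il1r1, Il1rl1 and Il4i1b had groups that did not overlap, so leaving out 1 library could hardly turn their sign. For 23 of the 64 genes too few libraries had enough counts for a test. Of these 23, 7 had 100 counts or more in at least 1 library, and only 2 were under 10 counts in every library.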
